A study of Homo sapiens with 15 samples.

Results

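The 9 genes described here encode the core of transforming growth factor beta (TGF-β) signaling. They were chosen by symbol, with earlier results of these data known. They are the ligand genes TGFB1, TGFB2 and TGFB3, the receptor genes TGFBR1, TGFBR2 and TGFBR3, the inhibitor genes SMAD7 and SKIL, and the response gene TGFBI. All 9 were present in both deposited expression tables, among 16296 genes measured in CAKi-1 cells and 16188 in 786O cells, of which 15247 were in both.

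RNA-seq was done on 15 libraries from cultured human clear cell renal cell carcinoma (ccRCC) lines to find what changes in transcription when ANGPTL4, a secreted regulator of lipoprotein lipase, is lost. The groups were CAKi-1 WT (4 libraries), CAKi-1 A4KO (5 libraries), 786O WT (3 libraries) and 786O A4KO (3 libraries). CAKi-1 cells have wild-type VHL and 786O cells have mutant VHL, so WT here refers to ANGPTL4 alone. A4KO cells were mixtures of CRISPR clones picked for their loss of ANGPTL4 mRNA, and 786O WT cells were mixtures of clones that had kept it. CAKi-1 WT cells were parental according to the methods of the study and mixed clones according to its deposited design, and the culture medium is given as DMEM in the former and as RPMI in the labels. Polyadenylated RNA was sequenced, and whether strand was used in counting is not given in the sources used here. Values are in TPM, a transcript abundance corrected for length and scaled within each library, which keeps no record of depth. The labels give 3000000 reads per sample, and TPM cannot check that number or give the reads behind a value. Nothing says that replicates came from separate cultures, so p-values measure only the spread between these samples, which may be technical.

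TGF-β ligands are secreted in a latent form held to the extracellular matrix, and once freed they bind TGFBR2, which recruits and activates the kinase TGFBR1. The activated receptor phosphorylates SMAD2 and SMAD3, which enter the nucleus with SMAD4 and change transcription, while TGFBR3 (betaglycan) presents ligand at the cell surface and matters most for TGFB2. In the kidney the pathway is best known for matrix deposition in fibrosis, and in epithelial tumors for both growth arrest and a shift toward a mesenchymal state.

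The libraries of each group were first compared with each other. CAKi-1 A4KO replicates 1 and 4 stood apart from the other A4KO libraries of that line. Their root mean square (RMS) difference from each other, over log2(TPM + 1) of the 12742 genes with a mean of at least 1 TPM, was 0.179, while replicate 1 differed from replicate 5 by 0.404. Replicates 2, 3 and 5 were each nearest to a library among themselves. Results in CAKi-1 were therefore also computed with A4KO replicates 2, 3 and 5 only. These values are given for the named pathway genes whose call they changed and for some of the others. The subset was chosen from expression in these same libraries, which can narrow the spread, so its p-values are only a description. In 786O the largest such difference within a group was 0.176, over 12625 genes.

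The targeted gene was checked first against the labels. ANGPTL4 was at 74.9, 83.2, 86.9 and 71.7 TPM in CAKi-1 WT replicates 1 to 4 and at 7.26, 2.87, 2.87, 6.47 and 2.90 TPM in A4KO replicates 1 to 5. In 786O it was at 20.6, 17.6 and 18.1 TPM across WT libraries, against 2.19, 2.17 and 1.86 TPM in A4KO. Every A4KO library was below every WT library of its line, and the highest CAKi-1 A4KO values were those of replicates 1 and 4. Because clones were picked for low ANGPTL4 mRNA, this checks the labels and is not a finding.

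Genes were compared between A4KO and WT within each line, with adjusted p from limma over all genes of the table. Fold changes are on the log2(TPM + 1) scale, which understates the change of genes at low TPM, and a gene passed at an adjusted p of at most 0.05. In CAKi-1, 3 of the 9 genes were higher in A4KO (TGFB1, TGFB2 and TGFBR1), against 17.9% of all genes, and 1 was lower (TGFBI), against 21.1% of all genes. With A4KO replicates 2, 3 and 5 only, 3 were higher, against 16.7% of all genes, and 3 were lower (TGFBR2, SMAD7 and TGFBI), against 22.2%. TGFB2 alone also changed by at least 1 on the log2 scale, upward, where 2.21% of all genes met both thresholds upward and 1.12% downward. Values of WT and A4KO were fully apart for 3 of the 9 genes (TGFB1, TGFB2 and TGFBI), against 35.9% of all genes.

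In 786O the same genes went mostly down. Of the 9, 7 were lower in A4KO, against 33.5% of all genes, and 0 were higher by limma, against 27.5% of all genes. At an unadjusted p under 0.05, 0 were higher and 8 lower, against 29.1% and 35.4% of all genes. SMAD7 and TGFB2 did not pass. The trend and robust options of limma gave 8 lower, with TGFB2 added, while 9991 of 16188 genes passed in either direction, against 9874 without them. SMAD7 passed as higher after quantile normalization and with the shift of neighboring genes taken off, as described with each gene. With that shift taken off, 1 was higher and 6 lower, with TGFB1 lost, against 29.9% and 30.3% of all genes. TGFB3 alone also reached a log2 fold change of -1, where 5.19% of all genes met both thresholds downward and 2.43% upward. The groups did not overlap for 9 of the 9 genes, against 66.9% of all genes, so non-overlap was common in this line. Quantile normalization shifted the balance of calls in 786O. Of genes past the adjusted p, 45.1% were higher in A4KO as deposited and 54.1% after it, so the majority turned. Of the 9 genes 1 was then higher and 6 lower, against 5274 and 4469 of the 16188 genes of the table. Of genes past both thresholds, 31.9% were higher as deposited and 42.7% after it. Bulk RNA was measured, so fewer cells of a type and less RNA per cell cannot be told apart.

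**Figure D1:**
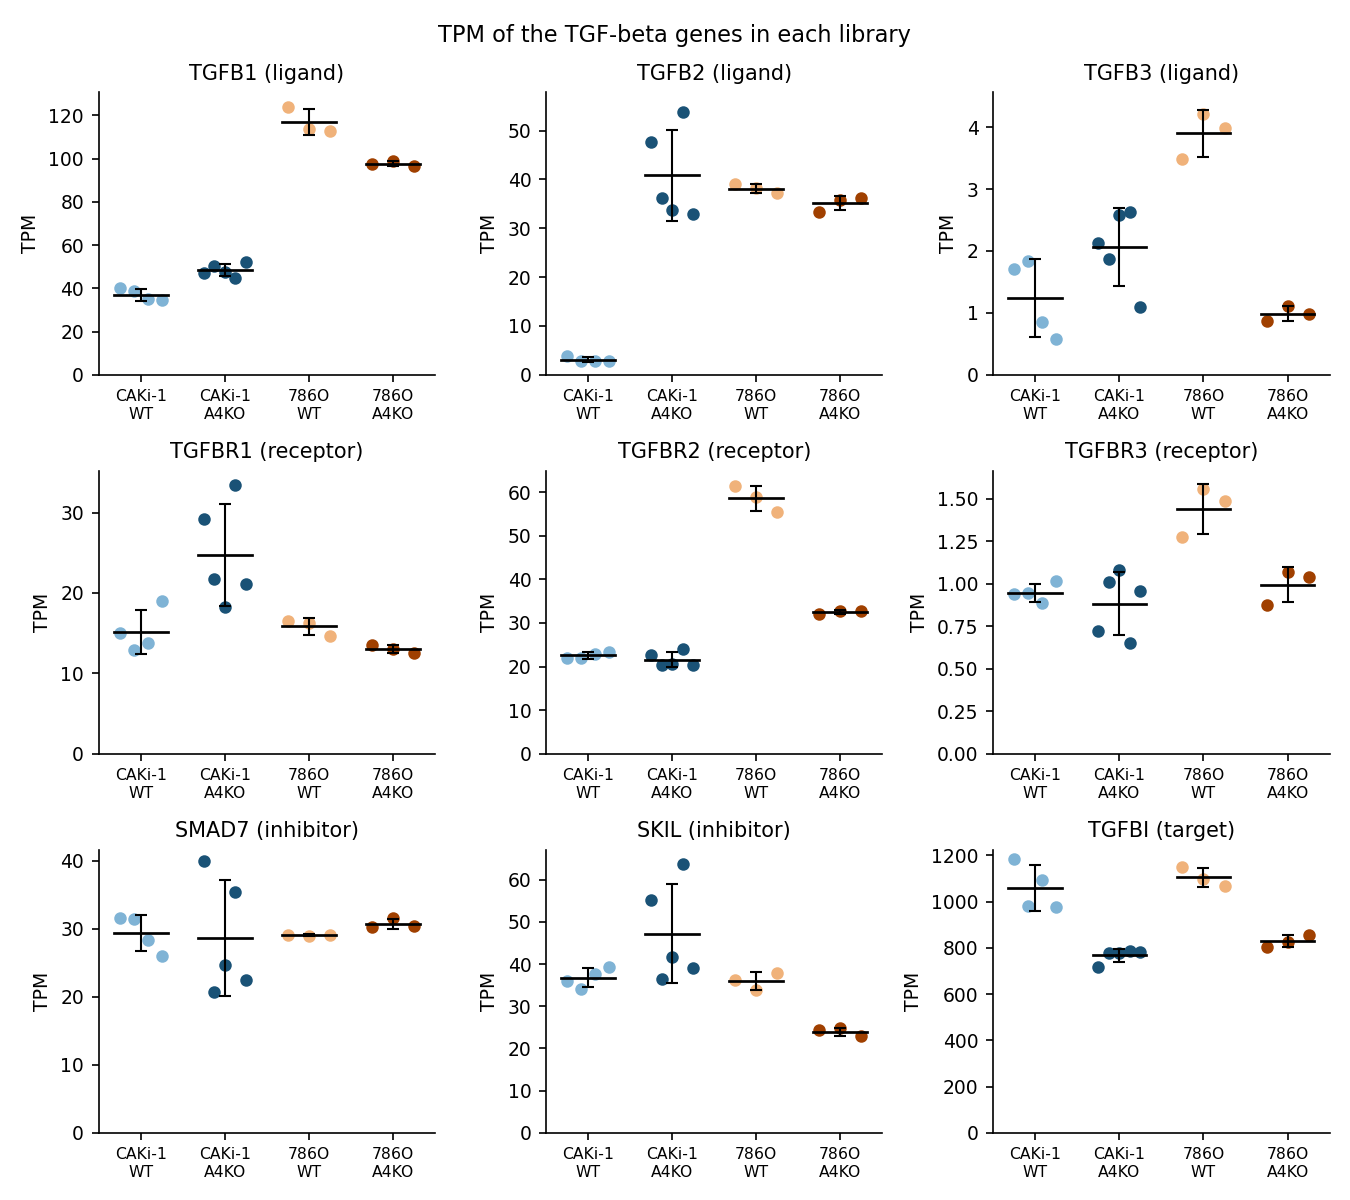
TPM of each of the 9 TGF-β genes (y axis, starting at 0) in the libraries of each group (x axis), with points for libraries, horizontal lines for group means and bars for 1 SD. TGFB2 lies between 2.77 and 3.78 TPM in CAKi-1 WT and between 32.8 and 53.8 TPM in CAKi-1 A4KO, and TGFB3 and TGFBR2 are lower in 786O A4KO than in 786O WT.

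TGFB2, the ligand that depends most on betaglycan, showed the largest change of the 9 genes in CAKi-1. It was at 3.78, 2.90, 2.77 and 2.77 TPM in CAKi-1 WT replicates 1 to 4 and at 47.7, 36.2, 33.8, 53.8 and 32.8 TPM in A4KO replicates 1 to 5. The groups lay far apart, and A4KO replicates 1 and 4 were again the highest of their group. The mean rose from 3.06 ± 0.487 TPM (SD, n = 4) to 40.8 ± 9.36 TPM (SD, n = 5), a ratio of 13.4. The log2 fold change was 3.35 ± 0.16 (SE), with an adjusted p of 1.9e-06, and 3.13 ± 0.09 (SE) with A4KO replicates 2, 3 and 5 only. An exact permutation test over the libraries gave p = 0.0159 (two-sided), the smallest that 4 against 5 libraries allow.

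In 786O, TGFB2 was already abundant in WT cells, at 39.1, 38.2 and 37.2 TPM, and was at 33.4, 35.8 and 36.2 TPM in A4KO. All A4KO values were below all WT values, but by a small margin. The log2 fold change was -0.12 ± 0.04 (SE) with an adjusted p of 0.064. The test passed only with the trend and robust options of limma, at an adjusted p of 0.046. With the median of the neighboring genes (-0.093) taken off the change was -0.023, with an adjusted p of 0.67. Over all alternatives the adjusted p ran from 0.046 to 0.67. Each table was normalized separately, so levels in the lines are set side by side here without a test, and TGFB2 in CAKi-1 A4KO replicates 2, 3 and 5 was near the 786O values while replicates 1 and 4 were above all of them.

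TGFB1, the most widely expressed ligand of the family, moved in opposite directions in the lines. In CAKi-1 it was at 40.1, 38.6, 35.0 and 34.4 TPM across WT libraries, against 46.9, 50.2, 47.7, 44.9 and 52.0 TPM in A4KO. The groups did not overlap, and replicates 1 and 4 did not stand apart for this gene. Its log2 fold change was 0.38 ± 0.07 (SE) with an adjusted p of 0.002, and 0.42 with an adjusted p of 0.0024 with A4KO replicates 2, 3 and 5 only. In 786O it was at 124, 114 and 113 TPM across WT libraries, against 97.6, 98.9 and 96.7 TPM in A4KO, again without overlap. The log2 fold change there was -0.25 ± 0.05 (SE) with an adjusted p of 0.0035.

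The median change of the genes around TGFB1 was also downward in 786O A4KO, though a median does not say how many of them were lower. Over the 25 expressed genes on each side of TGFB1 along the chromosome the median log2 fold change was -0.29 in 786O, and once this was taken off, TGFB1 was at 0.034 with an adjusted p of 0.55. Its locus, chr19:41301587-41353922 on the minus strand of GRCh38, also overlaps HNRNPUL1, CCDC97 and TMEM91 on the other strand. HNRNPUL1 and CCDC97 were lower in 786O A4KO as well, with log2 fold changes of -0.41 and -0.80, while TMEM91 did not pass (-0.51, adjusted p = 0.083). Without strand, reads from sequence shared by transcripts of both strands cannot be told apart. Whether these genes share such sequence in their transcripts was not examined. In CAKi-1 the neighboring genes had a median of 0.08, and TGFB1 had a log2 fold change of 0.29 with an adjusted p of 0.0072 once it was taken off. Over all alternatives the adjusted p of TGFB1 ran from 0.00097 to 0.013 in CAKi-1 and from 0.00074 to 0.55 in 786O.

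TGFB3, the least abundant ligand, was lower in 786O A4KO. The 786O values were 3.49, 4.22 and 3.99 TPM across WT libraries, against 0.876, 1.10 and 0.988 TPM in A4KO, with no overlap between the groups. The mean fell from 3.90 ± 0.374 to 0.989 ± 0.114 TPM (SD, n = 3 each), a ratio of 0.254. The log2 fold change was -1.30 ± 0.07 (SE) with an adjusted p of 1.9e-05. The exact permutation test reached p = 0.1 (two-sided), the smallest that 3 against 3 libraries allow. The median over the neighboring genes was -0.77, and TGFB3 was at -0.53 with an adjusted p of 0.0011 once this was taken off, under the fold threshold. IFT43, which overlaps TGFB3 on the other strand at chr14:75958097-75983011, was also lower, at -0.78.

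In CAKi-1, TGFB3 was at 1.71, 1.84, 0.850 and 0.570 TPM across WT libraries, against 2.12, 1.87, 2.58, 2.63 and 1.09 TPM in A4KO. These groups overlapped through A4KO replicate 5 alone. This gave a log2 fold change of 0.46 ± 0.22 (SE) with an adjusted p of 0.12. It passed only without A4KO replicate 5, at 0.60 with an adjusted p of 0.04. The log2 fold change ran from 0.31 to 0.60 with each library left out in turn, and reached 0.76 under the other alternatives. Its adjusted p ran from 0.04 to 0.32 over all alternatives.

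The ligands were also summed in each library, since TPM is a measure per transcript length and can be added over genes. In CAKi-1 the sum rose from 41.3 ± 3.76 TPM in WT to 91.2 ± 7.43 TPM in A4KO, a ratio of 2.21, with an exact permutation p of 0.0159 (two-sided, n = 4 and 5). TGFB2 made up 7.38 ± 0.669% of the ligand sum in WT and 44.4 ± 6.46% in A4KO. TGFB1 made up the rest almost alone, with 89.7% in WT and 53.4% in A4KO. In 786O the sum was 159 ± 6.46 TPM in WT and 134 ± 1.93 TPM in A4KO, a ratio of 0.842, with an exact permutation p of 0.1, the smallest possible for 3 against 3. The TGFB2 share in 786O was 24.0 ± 0.462% in WT and 26.2 ± 0.844% in A4KO. The composition of the ligand pool thus moved in CAKi-1 mainly through TGFB2, while in 786O the sum was lower with little change in its makeup.

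**Figure D2:**
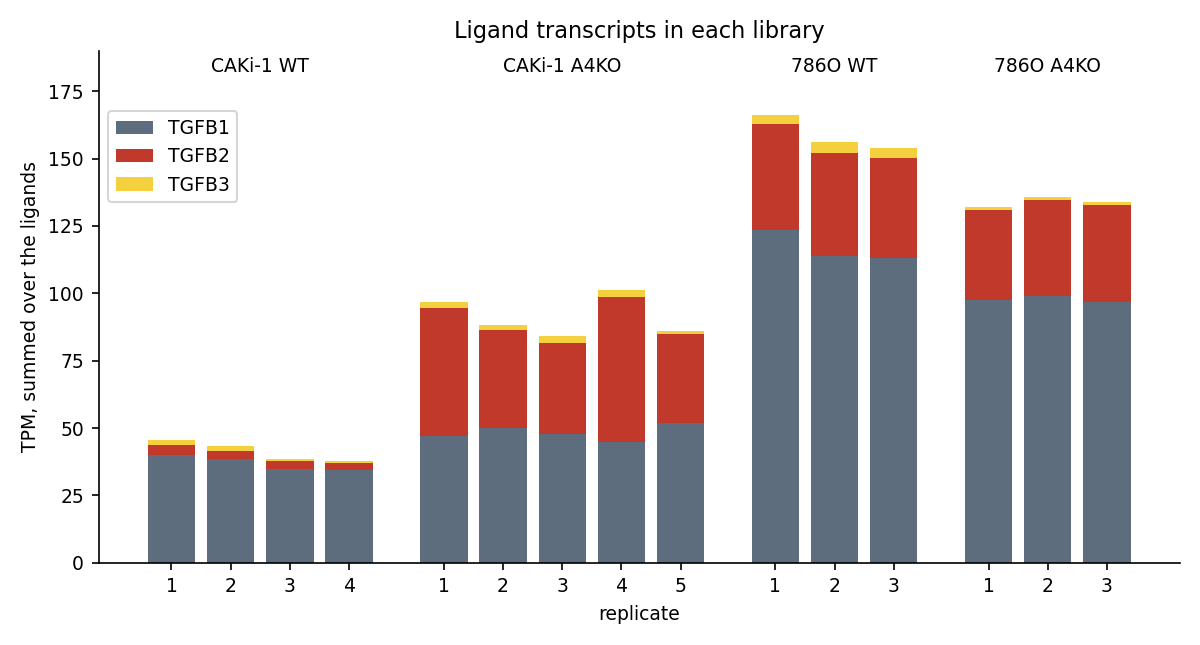
Summed TPM of TGFB1, TGFB2 and TGFB3 (y axis, starting at 0) in each of the 15 libraries (x axis, replicates within groups), stacked by gene. The sum lies between 37.8 and 45.6 TPM in CAKi-1 WT and between 84.0 and 101 TPM in CAKi-1 A4KO, and the added part is mostly TGFB2.

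The promoters of TGFB2 and TGFB3 are shown because these were the ligands with the largest change in CAKi-1 and in 786O. RefSeq promoter windows (GRCh38.p14) were matched for 9 of the 9 genes, taking the entry nearest to the annotated start where a gene had several, and the 250 bases before the start of transcription were searched on both strands for 8 motifs chosen after matches had been seen. The motifs were the SMAD-binding palindrome GTCTAGAC and its shortened form GTCTAG, the CAGA box AGCCAGACA and its shortened form CAGACA, the GC-rich SMAD sequence GGCGCC, the AP-1 site TGAGTCA, the cyclic AMP response element TGACGTCA and the E-box CACGTG. The TGFB2 window is at chr1:218345086-218345335 on the plus strand and the TGFB3 window at chr14:75983012-75983261 on the minus strand, each written 5′ to 3′ with motif matches in capitals.
TGFB2: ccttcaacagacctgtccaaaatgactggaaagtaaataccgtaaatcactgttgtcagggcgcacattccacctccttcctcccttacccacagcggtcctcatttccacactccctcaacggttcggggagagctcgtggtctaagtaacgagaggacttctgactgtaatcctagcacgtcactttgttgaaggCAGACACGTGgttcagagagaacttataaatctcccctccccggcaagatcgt
TGFB3: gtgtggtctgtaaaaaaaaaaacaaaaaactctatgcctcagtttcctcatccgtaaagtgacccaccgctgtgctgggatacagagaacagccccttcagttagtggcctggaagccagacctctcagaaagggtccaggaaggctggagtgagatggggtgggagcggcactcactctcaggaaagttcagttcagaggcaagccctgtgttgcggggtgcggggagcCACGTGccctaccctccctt
The TGFB2 window held CAGACA and CACGTG, which overlap each other there, and the TGFB3 window held CACGTG alone. Of all 35116 windows of this length, 13.6% held CAGACA, 6.34% CACGTG, 16.4% GGCGCC, 4.92% GTCTAG, 4.2% TGAGTCA, 1.65% TGACGTCA, 0.231% AGCCAGACA and 0.182% GTCTAGAC. Among the 9 genes CAGACA was in 2 windows, CACGTG in 2, GGCGCC in 2, GTCTAG in 1 and TGACGTCA in 1. The window of TGFBR3 lay 20184 bases and that of SKIL 373 bases from the annotated start of the gene, so the counts hold for these windows only. A match is a description of the sequence, not a binding site or a cause.

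Among the receptors, TGFBR1, the kinase that phosphorylates SMAD2 and SMAD3, was higher in CAKi-1 A4KO. In CAKi-1 it was at 15.1, 12.9, 13.8 and 19.0 TPM across WT libraries, against 29.2, 21.7, 18.2, 33.5 and 21.1 TPM in A4KO. WT replicate 4 lay above A4KO replicate 3, and A4KO replicates 1 and 4 were the highest. The change on the log2 scale was 0.65 ± 0.18 (SE) with an adjusted p of 0.019, and 0.41 ± 0.13 (SE) with an adjusted p of 0.041 with A4KO replicates 2, 3 and 5 only. The call was lost without WT replicate 2 (0.58, adjusted p = 0.059) and without WT replicate 3 (0.61, adjusted p = 0.054), and the adjusted p ran from 0.0071 to 0.059 over all alternatives. In 786O TGFBR1 was at 16.5, 16.3 and 14.7 TPM across WT libraries, against 13.5, 13.0 and 12.5 TPM in A4KO. It fell there without overlap, by 0.26 on the log2 scale, with an adjusted p of 0.0076. After quantile normalization the change was -0.16, with an adjusted p of 0.041. The median change of the genes around TGFBR1 was upward in 786O, at 0.41. Once this was taken off TGFBR1 was at -0.67, with an adjusted p of 0.00015 (0.00015 to 0.041 over all alternatives).

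TGFBR2, the receptor that binds ligand first, was lower in 786O A4KO. In the 786O table it had 61.3, 58.8 and 55.4 TPM across WT libraries, against 32.1, 32.8 and 32.7 TPM in A4KO. The groups lay far apart, and the A4KO libraries were within 1 TPM of each other. Its log2 fold change was -0.83 ± 0.05 (SE) with an adjusted p of 2e-05, and the ratio of the means was 0.556. In CAKi-1 it was at 21.9, 22.0, 22.9 and 23.3 TPM across WT libraries, against 22.7, 20.4, 20.5, 24.0 and 20.3 TPM in A4KO. A4KO replicates 1 and 4 lay within or above the WT range and the other A4KO libraries below it. This gave a log2 fold change of -0.06 ± 0.06 (SE) with an adjusted p of 0.47. With A4KO replicates 2, 3 and 5 only it was -0.14 with an adjusted p of 0.037, and with the median of the neighboring genes (0.18) taken off it was -0.24 with an adjusted p of 0.014. Over all alternatives the adjusted p ran from 0.014 to 0.75 in CAKi-1.

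The balance of the signaling receptors differed between the groups. The ratio of TGFBR2 to TGFBR1 in TPM was 1.45, 1.71, 1.66 and 1.22 in CAKi-1 WT and 0.779, 0.943, 1.12, 0.717 and 0.965 in A4KO. In 786O it was 3.71, 3.61 and 3.78 in WT and 2.38, 2.52 and 2.61 in A4KO. The ratio was lower in every A4KO library than in every WT library of its line, with more TGFBR1 in CAKi-1 and less TGFBR2 in 786O. These ratios were not tested.

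TGFBR3, the coreceptor betaglycan, was near 1 TPM in every group. It was at 0.937, 0.943, 0.886 and 1.02 TPM across CAKi-1 WT libraries, against 0.722, 1.01, 1.08, 0.649 and 0.955 TPM in A4KO. The groups overlapped, with A4KO replicates 1 and 4 lowest. The change on the log2 scale was -0.05 with an adjusted p of 0.62, and 0.050 with an adjusted p of 0.42 with A4KO replicates 2, 3 and 5 only (0.14 to 0.95 over all alternatives). No group mean reached 1 TPM in CAKi-1, so TGFBR3 was the only one of the 9 genes that a filter at 1 TPM would remove. Values in 786O were 1.27, 1.56 and 1.49 TPM across WT libraries, against 0.877, 1.07 and 1.04 TPM in A4KO. The log2 fold change of -0.29 ± 0.06 (SE) passed, with an adjusted p of 0.0074, but after quantile normalization it was -0.14 with an adjusted p of 0.11 (0.0051 to 0.11 over all alternatives).

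The inhibitors are themselves induced by TGF-β in many cells and feed back on it. SMAD7, which blocks SMAD phosphorylation at the receptor, was at 31.6, 31.4, 28.3 and 26.0 TPM across CAKi-1 WT libraries, against 40.0, 20.7, 24.6, 35.4 and 22.4 TPM in A4KO. A4KO replicates 1 and 4 lay above all WT libraries and replicates 2, 3 and 5 below all of them. With all libraries the change was therefore near 0, at -0.08 ± 0.19 (SE) with an adjusted p of 0.78. With A4KO replicates 2, 3 and 5 only it was -0.36 ± 0.09 (SE) with an adjusted p of 0.014, while without A4KO replicate 2 it was 0.024 (adjusted p = 0.93), and the adjusted p ran from 0.014 to 0.99 over all alternatives. In 786O SMAD7 was at 29.1, 29.0 and 29.1 TPM across WT libraries, against 30.3, 31.6 and 30.4 TPM in A4KO. The groups did not overlap, but the log2 fold change was only 0.08 with an adjusted p of 0.098. It passed after quantile normalization, at 0.11 with an adjusted p of 0.036, and with the median of the neighboring genes (-0.21) taken off, at 0.29 with an adjusted p of 0.00066 (0.00066 to 0.26 over all alternatives).

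SKIL, a corepressor that binds SMAD complexes, was lower in 786O A4KO. The 786O values were 36.2, 33.8 and 38.0 TPM across WT libraries, against 24.3, 24.8 and 22.8 TPM in A4KO, with no overlap. Its log2 fold change was -0.57 ± 0.06 (SE) with an adjusted p of 0.00023, and it was between -0.70 and -0.53 under every alternative tried. In CAKi-1 SKIL was at 35.9, 34.1, 37.7 and 39.3 TPM across WT libraries, against 55.2, 36.5, 41.6, 63.8 and 39.0 TPM in A4KO. A4KO replicates 1 and 4 were far above the rest, while replicates 2 and 5 lay within the WT range. This gave a log2 fold change of 0.32 ± 0.16 (SE) with an adjusted p of 0.13, and 0.09 with an adjusted p of 0.35 with A4KO replicates 2, 3 and 5 only. It passed with the median of the neighboring genes (-0.17) taken off, at 0.49 with an adjusted p of 0.034 (0.034 to 0.35 over all alternatives).

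TGFBI, a secreted matrix protein named for its induction by TGF-β, was lower in A4KO cells of both lines. It was by far the most abundant of the 9 genes, at 1186, 982, 1092 and 976 TPM across CAKi-1 WT libraries, against 717, 776, 778, 784 and 784 TPM in A4KO. In the 786O table it had 1149, 1098 and 1069 TPM across WT libraries, against 804, 824 and 856 TPM in A4KO. Every A4KO library was below every WT library of its line, and CAKi-1 A4KO replicate 1 was the lowest. The change on the log2 scale was -0.46 ± 0.07 (SE) in CAKi-1, with an adjusted p of 0.00084, and -0.42 ± 0.04 (SE) in 786O, with an adjusted p of 0.00033. With A4KO replicates 2, 3 and 5 only it was -0.44 in CAKi-1, with an adjusted p of 0.0034. With all libraries as deposited, TGFBI was the only one of the 9 genes that passed in the same direction in both lines, while TGFBR2 did so too with A4KO replicates 2, 3 and 5 only or with the neighbors taken off. TGFBI fell in CAKi-1 A4KO while TGFB1 and TGFB2 rose.

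**Figure D3:**
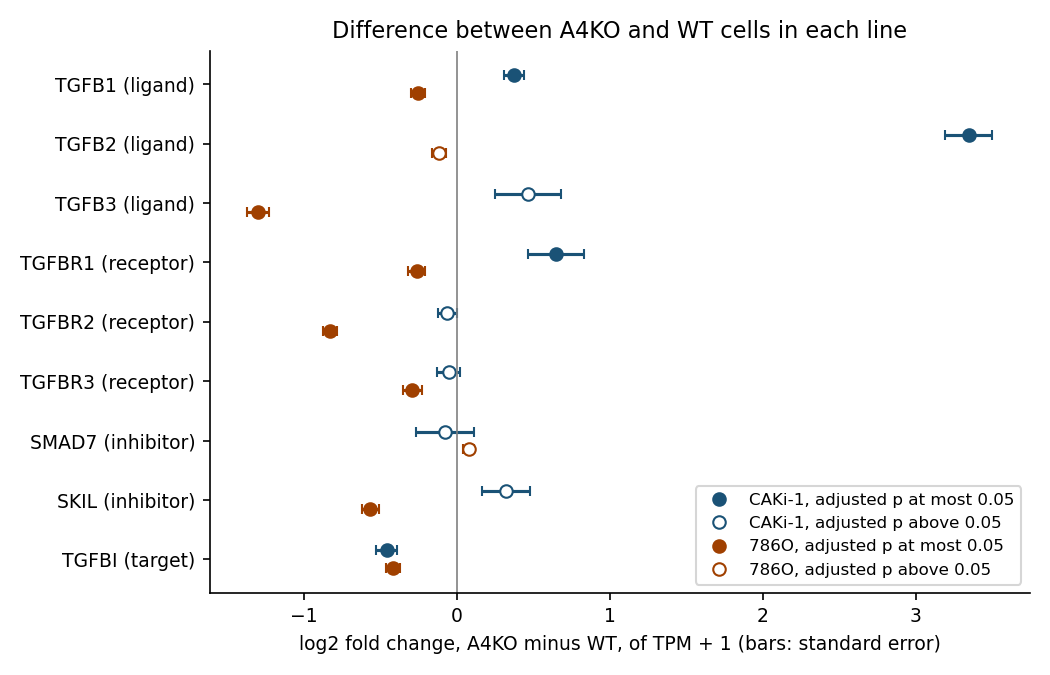
Log2 fold change of TPM + 1, A4KO minus WT (x axis), of the 9 TGF-β genes (y axis) in CAKi-1 (blue) and 786O (brown), with bars for 1 standard error. Filled points have an adjusted p of at most 0.05, and TGFB2 in CAKi-1 stands alone at 3.35, while 7 filled points of 786O lie below 0.

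TGFBI led the order of levels in every group, and TGFB3 and TGFBR3 came last. In CAKi-1 WT the order ran from TGFBI (1059 TPM) through TGFB1 (37.0), SKIL (36.7), SMAD7 (29.3), TGFBR2 (22.5), TGFBR1 (15.2) and TGFB2 (3.06) to TGFB3 (1.24) and TGFBR3 (0.945). Neighbors in this order overlapped between libraries for TGFB1 and SKIL and for TGFB3 and TGFBR3. In CAKi-1 A4KO, TGFB2 moved up to a mean of 40.8 TPM, and the libraries of each neighbor overlapped from TGFB1 (48.3) through SKIL (47.2), TGFB2, SMAD7 (28.6), TGFBR1 (24.7) and TGFBR2 (21.6). In 786O WT the order after TGFBI (1105) and TGFB1 (117) was TGFBR2 (58.5), TGFB2 (38.1), SKIL (36.0), SMAD7 (29.1), TGFBR1 (15.8), TGFB3 (3.90) and TGFBR3 (1.44), with overlap for TGFB2 and SKIL alone. In 786O A4KO, TGFB2 (35.1) came before TGFBR2 (32.5) and TGFB3 (0.989) shared the last place with TGFBR3 (0.995), the only neighbors that overlapped.

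Whether the change from WT to A4KO, the A4KO effect, differed between the lines was tested directly. The test took the difference of the log2 fold changes within each table. A4KO cells came from picked clones, and the kind of WT cells may differ between the lines. Loss of ANGPTL4 cannot be told apart from these. The effect differed for 6 of the 9 genes, against 55.1% of the genes in both tables, and lay above in CAKi-1 for all 6, against 28.8%. The difference, CAKi-1 minus 786O, was 3.46 ± 0.20 (SE) for TGFB2, with an adjusted p of 1e-08. It was 1.76 ± 0.29 (SE) for TGFB3, with an adjusted p of 0.00015, which includes a CAKi-1 effect that did not pass alone. For the other genes that differed it was 0.91 for TGFBR1, 0.89 for SKIL, 0.77 for TGFBR2 and 0.63 for TGFB1, with adjusted p between 4.6e-06 and 0.0052. It did not pass for TGFBR3 (0.24, adjusted p = 0.081), SMAD7 (-0.15, adjusted p = 0.62) or TGFBI (-0.04, adjusted p = 0.72). With the median of the neighboring genes taken off in each line, an alternative chosen after seeing the data, the same 6 genes differed, against 51.7% of all genes, but the sizes moved. They were then 0.94 for TGFB3 (adjusted p = 0.015), 0.35 for TGFBR2 (adjusted p = 0.0037) and 0.26 for TGFB1 (adjusted p = 0.026), all smaller, and 1.43 for TGFBR1 (adjusted p = 0.00022), which was larger.

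The libraries that stood apart bore on the genes near the threshold. With CAKi-1 A4KO replicates 2, 3 and 5 only, a subset chosen by expression, 8 of the 9 genes differed. Among all genes measured in both lines, 9075 of 15247 then did so, against 8404 with every library kept. The 8 included TGFBR3 (0.34, adjusted p = 0.0019) and SMAD7 (-0.44, adjusted p = 0.0028). The difference for TGFBR3 also passed without A4KO replicate 1 alone (0.27, adjusted p = 0.049) or replicate 4 alone (0.28, adjusted p = 0.024), and its adjusted p ran from 0.0019 to 1 over all alternatives. For SMAD7 it ran from 0.0028 to 0.86. The sign of the TGFBI difference turned without CAKi-1 WT replicate 1, to 0.013, and with the neighbors taken off, to 0.20, and its adjusted p was at least 0.081 under every alternative tried.

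Genes known to respond to TGF-β were then examined, as a list of 20 induced and 4 repressed genes, to set the ligands against their targets. Genes named from these and the other pathway lists are the 2 of each list and line with the largest change past the threshold. CCN2 and a few said to have been picked after their values were seen are named as well. All these lists were chosen with earlier results of these data known, so their counts beside all genes are only a description. Of the 19 induced genes measured in CAKi-1, 12 were higher and 4 lower in A4KO, against 17.9% and 21.1% of all genes, so the lower share was that of the table. The median log2 fold change was 0.62, against -0.01 over all genes of the table. With A4KO replicates 2, 3 and 5 only, 10 rose and 4 fell, against 16.7% and 22.2% of all genes, with a median of 0.52. In 786O, 2 of 19 rose and 12 fell, against 27.5% and 33.5% of all genes, with a median of -0.46, against -0.03 over all genes. With the median of the neighboring genes taken off in 786O, 4 rose and 10 fell, against 29.9% and 30.3% of all genes, with a median of -0.25. The effect differed between the lines for 15 of the 19, against 55.1% of all genes, and it lay above in CAKi-1 for 13 of them, against 28.8%.

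FN1, which encodes the matrix protein fibronectin, had the largest change of the list in CAKi-1. It was at 181, 197, 220 and 287 TPM across CAKi-1 WT libraries, against 9235, 3879, 3311, 8692 and 3599 TPM in A4KO. Values in 786O were 4200, 3997 and 4043 TPM across WT libraries, against 897, 909 and 920 TPM in A4KO. The groups did not overlap in either line, and A4KO replicates 1 and 4 had more than the rest. The log2 fold changes were 4.57 ± 0.34 (SE) in CAKi-1 and -2.16 ± 0.04 (SE) in 786O, with adjusted p of 2.5e-05 and 3.3e-07, and 4.04 in CAKi-1 with replicates 2, 3 and 5 only. IL11, a cytokine of the fibrotic response, was at 11.2, 9.17, 10.1 and 11.4 TPM across CAKi-1 WT libraries, against 66.4, 37.8, 42.9, 59.2 and 32.8 TPM in A4KO. The 786O values were 23.8, 24.1 and 23.8 TPM across WT libraries, against 1.16, 1.27 and 1.83 TPM in A4KO. It rose in CAKi-1 A4KO (log2 fold change 2.05, adjusted p = 8.4e-05) and fell in 786O A4KO (-3.37, adjusted p = 2.1e-06). The direction of FN1 and IL11 was thus that of the ligand sum in each line, and a link between them was not tested.

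CCN2, a matricellular protein, went the same way. It was at 56.5, 53.2, 44.9 and 38.0 TPM across CAKi-1 WT libraries, against 106, 117, 131, 137 and 111 TPM in A4KO, a log2 fold change of 1.31 with an adjusted p of 7.7e-05. In the 786O table it had 50.9, 49.9 and 50.2 TPM across WT libraries, against 37.9, 34.1 and 37.2 TPM in A4KO, a log2 fold change of -0.46 with an adjusted p of 0.0003, or -0.25 (adjusted p = 0.0048) with the median of the neighboring genes (-0.21) taken off. The groups of CCN2 did not overlap in either line.

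Some genes of the induced list were picked out after their values were seen. PMEPA1, which encodes an inhibitor of the pathway, was higher in CAKi-1 A4KO (0.79, adjusted p = 6e-06) and lower in 786O A4KO (-0.95, adjusted p = 2.3e-05). CDKN1A, the cell cycle inhibitor p21, was lower in CAKi-1 A4KO (-0.43, adjusted p = 0.00026) and higher in 786O A4KO (1.87, adjusted p = 5.1e-07). SNAI2, a transcription factor of the mesenchymal state, was higher in CAKi-1 A4KO (1.67, adjusted p = 1.1e-06) and was at -0.02 in 786O. Across the induced list 8 genes were higher in CAKi-1 and lower in 786O, 2 were lower in CAKi-1 and higher in 786O, and 2 were lower in both, against 7.65%, 8.33% and 7.08% of the genes in both tables.

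Of the repressed list, ID1 and ID3 were higher in A4KO of both lines. ID1, ID2 and ID3 encode inhibitors of helix-loop-helix factors and are also targets of bone morphogenetic proteins. Of the 4 repressed genes, 2 were higher in CAKi-1 A4KO, with a median log2 fold change of 0.83, and 4 were higher in 786O A4KO, with a median of 1.10, against 17.9% and 27.5% of all genes. In CAKi-1 the count was 2 with A4KO replicates 2, 3 and 5 only, with a median of 0.56, and 4 after quantile normalization. ID1 was at 83.9, 91.8, 91.1 and 120 TPM across CAKi-1 WT libraries, against 468, 260, 273, 410 and 231 TPM in A4KO, a log2 fold change of 1.71 with an adjusted p of 0.00037. ID3 was at 97.7, 96.7, 101 and 131 TPM across CAKi-1 WT libraries, against 341, 183, 212, 279 and 163 TPM in A4KO, a log2 fold change of 1.10 with an adjusted p of 0.0033. For both genes the A4KO libraries lay above all WT libraries, with replicates 1 and 4 highest. In 786O the log2 fold changes were 0.92 for ID1, 1.27 for ID3 and 1.66 for ID2, with adjusted p between 2e-06 and 6.2e-06. ID2 was at 0.56 in CAKi-1 with an adjusted p of 0.051, and at 0.31 with an adjusted p of 0.15 with A4KO replicates 2, 3 and 5 only. It passed there without A4KO replicate 2 (0.68, adjusted p = 0.021) or replicate 5 (0.63, adjusted p = 0.042). It also passed with the filter on low values, the trend and robust options, quantile normalization or the neighbors taken off, and the adjusted p ran from 0.021 to 0.15 over all alternatives.

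**Figure D4:**
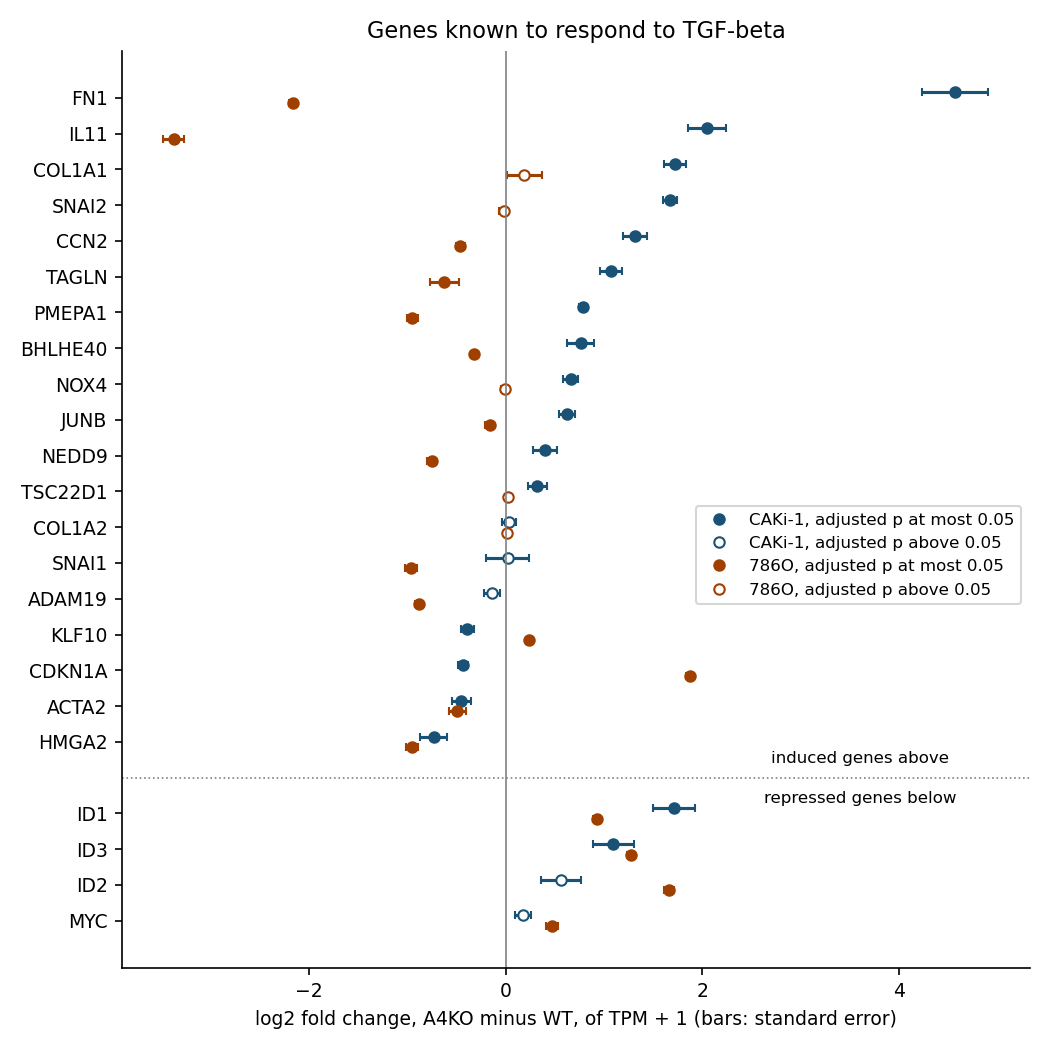
Log2 fold change of TPM + 1, A4KO minus WT (x axis), of the induced and repressed TGF-β response genes measured in both lines (y axis), for CAKi-1 (blue) and 786O (brown), with bars for 1 standard error and filled points at an adjusted p of at most 0.05. FN1 and IL11 lie far to the right in CAKi-1 and to the left in 786O, and ID1 and ID3 lie to the right in both.

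Most genes that hold and release the latent ligand were higher in CAKi-1 A4KO. Of 11 genes of latency and activation, 9 were higher and 0 lower there by limma, against 17.9% and 21.1% of all genes, with a median log2 fold change of 0.54. At an unadjusted p under 0.05, 9 were higher and 1 lower (NRROS, named after its value was seen), against 22.4% and 25.9% of all genes. With A4KO replicates 2, 3 and 5 only, 9 were higher and 0 lower at the adjusted p, against 16.7% and 22.2% of all genes, with a median of 0.35. The lower count was 1 with a pseudocount of 0.1 and after quantile normalization. In 786O, 4 rose and 5 fell, against 27.5% and 33.5% of all genes, with a median of 0.00. THBS1, an activator of latent TGF-β, was higher in A4KO of both lines (0.92 and 0.48), and LRRC32, which docks the latent ligand on cells, was at 0.80 in CAKi-1 with an adjusted p of 0.0017. LRRC32 was at no more than 0.507 TPM in any 786O library, with a log2 fold change of 0.28. This was 1.11 with a pseudocount of 0.1 and 0.46 with the neighbors taken off. With the main settings LRRC32 passed there, at an adjusted p of 0.032. That call was lost without WT replicate 2 (0.27, adjusted p = 0.084), WT replicate 3 (0.24, adjusted p = 0.096), A4KO replicate 2 (0.31, adjusted p = 0.051) or A4KO replicate 3 (0.19, adjusted p = 0.057), and the adjusted p ran from 0.0046 to 0.096 over all alternatives. FURIN, the protease that cuts the ligand precursor, was chosen after its values were seen and was higher in both lines (0.54 and 1.15).

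LTBP4 and LTBP2, which encode latent TGF-β binding proteins, were far lower in 786O A4KO. LTBP3 and LTBP1, named after their values were seen, were at -1.13 and -0.34 there. LTBP1 had a mean of only 0.417 TPM in 786O WT and 0.118 TPM in 786O A4KO. LTBP4 was at 111, 101 and 107 TPM across 786O WT libraries, against 5.13, 4.42 and 6.19 TPM in A4KO, a log2 fold change of -4.11 ± 0.10 (SE) with an adjusted p of 1.2e-06. LTBP2 was at 19.6, 19.5 and 18.5 TPM across 786O WT libraries, against 1.02, 0.993 and 1.11 TPM in A4KO, a log2 fold change of -3.31 ± 0.04 (SE) with an adjusted p of 1.2e-07. LTBP2 and TGFB3 lie on the same chromosome, 14, and the median over the genes around LTBP2 was -0.78 in 786O, with -2.53 for LTBP2 once this was taken off. In CAKi-1 LTBP4 was at 63.9, 66.1, 69.7 and 78.6 TPM across WT libraries, against 148, 108, 97.9, 152 and 98.6 TPM in A4KO, a log2 fold change of 0.76 with an adjusted p of 0.0038. LTBP2 was at 0.27 in CAKi-1 with an adjusted p of 0.037, and at 0.14 (adjusted p = 0.047) with A4KO replicates 2, 3 and 5 only. This call was lost when any WT library was left out (0.25 to 0.29, adjusted p 0.064 to 0.098), without A4KO replicate 1 (0.23, adjusted p = 0.073) and without A4KO replicate 4 (0.22, adjusted p = 0.064). It was also lost with the median of the neighboring genes taken off (0.13, adjusted p = 0.29), and the adjusted p ran from 0.027 to 0.29 over all alternatives.

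Among 12 activin-type ligands and antagonists, 9 were measured in CAKi-1, with 2 higher and 2 lower in A4KO and a median of 0.10, and 8 in 786O, with 2 higher and 3 lower and a median of -0.18. These shares lay near those of all genes, 17.9% and 21.1% in CAKi-1 and 27.5% and 33.5% in 786O. INHBA, the activin A subunit, was at 156, 162, 162 and 211 TPM across CAKi-1 WT libraries, against 564, 488, 474, 580 and 459 TPM in A4KO. In 786O INHBA was at 42.0, 42.2 and 40.8 TPM across WT libraries, against 13.9, 13.0 and 15.3 TPM in A4KO. The log2 fold changes were 1.57 and -1.50, with adjusted p of 1.8e-05 and 6.7e-06, so the direction of INHBA was that of the TGF-β ligand sum in each line. INHBB, measured in 786O only, fell from a mean of 33.3 to 2.07 TPM, and GDF11 went down in CAKi-1 (-0.52) and up in 786O (0.42). The count of higher genes in CAKi-1 was 1 with the filter on low values and 4 with the neighbors taken off, and that of lower genes was 1 after quantile normalization, without WT replicate 1 or 2 and without A4KO replicate 1, 2, 3 or 5. With the neighbors taken off the medians were 0.32 in CAKi-1 and -0.094 in 786O.

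Of 9 other receptors, 2 were higher and 3 lower in CAKi-1 A4KO, with a median of -0.05, and 1 was higher and 5 lower in 786O A4KO, with a median of -0.28. Over all genes 17.9% were higher and 21.1% lower in CAKi-1, and 27.5% and 33.5% in 786O. The count of higher receptors in CAKi-1 was 1 without any of the 4 WT libraries in turn and without A4KO replicate 1 or 4, and that of lower receptors was 2 under several alternatives. The median was -0.13 in CAKi-1 with the neighbors taken off and -0.18 in 786O after quantile normalization. ENG, the coreceptor endoglin, was lower in A4KO of both lines (-0.62 and -1.16), and ACVR2B, a type II activin receptor, was at 0.58 in CAKi-1 and -0.28 in 786O. The latter was lost after quantile normalization (-0.10, adjusted p = 0.2) and with the median of the neighboring genes taken off (-0.06, adjusted p = 0.4), with a range of 0.0036 to 0.4 over all alternatives. ACVR2A fell in 786O A4KO (-0.58, adjusted p = 0.00021) and was at 0.28 in CAKi-1 with an adjusted p of 0.073, which passed without A4KO replicate 3 (0.34, adjusted p = 0.039) or replicate 5 (0.33, adjusted p = 0.045) and ran from 0.039 to 0.18 over all alternatives.

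Of 13 SMADs and their regulators, 5 were higher and 4 lower in CAKi-1 A4KO, with a median of -0.05, and 5 were higher and 6 lower in 786O A4KO, with a median of -0.16. The shares of all genes were 17.9% and 21.1% in CAKi-1 and 27.5% and 33.5% in 786O, and the CAKi-1 median was 0.028 after quantile normalization. That of 786O came near 0, at -0.046 after quantile normalization and -0.012 with the neighbors taken off. SMAD3, the transducer of the signal, was at 113, 116, 125 and 143 TPM across CAKi-1 WT libraries, against 60.4, 57.2, 58.9, 59.8 and 62.1 TPM in A4KO. The groups lay far apart and A4KO replicates 1 and 4 did not stand out, with a log2 fold change of -1.04 ± 0.07 (SE) and an adjusted p of 1.7e-05. In 786O SMAD3 was at 0.25 with an adjusted p of 0.0052, and at -0.012 with the median of the neighboring genes taken off (adjusted p = 0.85, 0.0019 to 0.85 over all alternatives). SMAD6, the inhibitor most tied to bone morphogenetic proteins, rose in A4KO of both lines (0.86 and 1.10), with 0.55 in CAKi-1 with A4KO replicates 2, 3 and 5 only. TGIF2, a corepressor, also rose in both (0.42 and 0.79, with 0.28 in CAKi-1 with those replicates only), but in CAKi-1 not without WT replicate 3 (0.39, adjusted p = 0.059) or WT replicate 4 (0.37, adjusted p = 0.057), with a range of 0.012 to 0.059 over all alternatives.

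The genes with levels most like those of TGFB2 were found by the RMS difference of log2(TPM + 1), each gene centered on its mean, over 15 libraries and 13284 genes. They were IGFBP3 (0.245), SEMA3F (0.358), DEPP1 (0.521), CYP1B1 (0.584) and ADAMTS9 (0.590), where TGFB2 itself had an RMS of 1.46 around its own mean. IGFBP3, an insulin-like growth factor binding protein, was at 44.4, 26.0, 41.5 and 42.4 TPM across CAKi-1 WT libraries, against 569, 288, 307, 550 and 277 TPM in A4KO. Like TGFB2 it was highest in A4KO replicates 1 and 4, and in 786O it was at 332, 318 and 315 TPM across WT libraries, against 396, 397 and 430 TPM in A4KO. Their log2 fold changes in CAKi-1 were between 2.05 and 3.31, which follows from the way they were chosen and is only a description. In 786O they moved less and not alike, from -0.86 for CYP1B1 to 0.34 for IGFBP3. Those of SEMA3F, DEPP1 and ADAMTS9 in 786O changed sign with the median of the neighboring genes taken off.

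**Figure D5:**
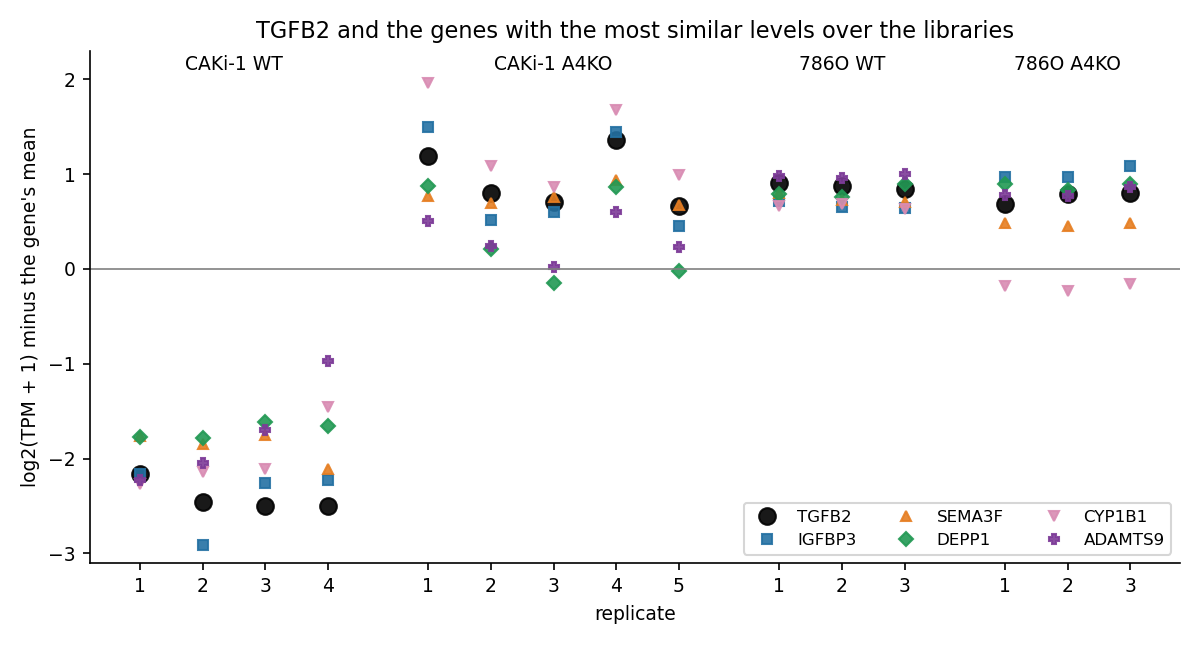
Log2(TPM + 1) minus the mean of the gene (y axis) for TGFB2 and the 5 genes with the most similar levels, in each of the 15 libraries (x axis, replicates within groups). Points of CAKi-1 WT lie far below those of the other groups, and in CAKi-1 A4KO replicates 1 and 4 are the highest for all 6 genes.

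Markers of other cell types were examined in the same libraries. The renal and ccRCC markers were led by VIM (2702 TPM in CAKi-1 and 3967 TPM in 786O), with PAX8 at 172 TPM in CAKi-1 WT and 231 TPM in 786O WT. Their summed level was 5375 to 6445 TPM in CAKi-1 WT and 2817 to 3745 TPM in A4KO, and 5908 to 6122 TPM in 786O WT and 4421 to 4473 TPM in A4KO, so it was lower in A4KO of both lines. KRT8 and KRT18, chosen after their values were seen, were among the lower ones in CAKi-1, with log2 fold changes of -1.88 and -1.57. Of 9 such markers, PAX2 and CA9 were not in the CAKi-1 table, and 2 of the 7 measured were higher and 4 lower in CAKi-1 A4KO, while 2 were higher and 7 lower of 9 in 786O. The shares of all genes were 17.9% and 21.1% in CAKi-1 and 27.5% and 33.5% in 786O.

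The summed level of fibroblast markers was higher in CAKi-1 A4KO, as was TGFB2. The sum was 24.4 to 34.1 TPM in WT and 48.4 to 72.7 TPM in A4KO, with 6 of 7 measured, 1 higher and 1 lower, near the 17.9% and 21.1% of all genes. COL1A1, also in the induced list, rose from a mean of 10.2 to 36.2 TPM and was the most abundant in A4KO, while PDGFRB was so in WT (14.5 TPM). Without COL1A1 the sum was 14.9 to 22.3 TPM in WT and 18.3 to 27.5 TPM in A4KO. PDGFRA was at 0.230 TPM in WT and 0.193 TPM in A4KO. In 786O the fibroblast sum was 11.5 to 15.6 TPM in WT and 9.61 to 12.4 TPM in A4KO, with LUM most abundant in WT (7.93 TPM, against 1.28 TPM in A4KO) and PDGFRB in A4KO, and 1 higher and 2 lower of 6 measured, near the 27.5% and 33.5% of all genes. Without LUM it was 4.91 to 6.82 TPM in WT and 8.47 to 11.1 TPM in A4KO, higher in every A4KO library, with PDGFRB at a mean of 0.407 TPM in WT and 4.69 TPM in A4KO. The endothelial markers had PECAM1 alone in the CAKi-1 table, at 0.360 TPM in WT and 3.29 TPM in A4KO, highest in replicates 1 and 4 (6.17 and 4.46 TPM), while CDH5, VWF and KDR were in neither table. In 786O the endothelial sum was 1.09 to 1.58 TPM in WT and 0.536 to 0.588 TPM in A4KO. Leukocyte markers were led by CD68, at a list sum of 56.3 to 59.9 and 50.1 to 60.7 TPM in CAKi-1 WT and A4KO and 42.8 to 44.1 and 20.2 to 21.5 TPM in 786O. The leukocyte marker PTPRC had a mean of at most 0.372 TPM in any group, and CD3E was in neither table. The part of these markers in the TGF-β results was not tested.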

How the data were processed

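RNA-seq values of 15 libraries were used. The authors ran kallisto against hg38 and deposited a table of TPM per gene for either line. The unit was inferred from the values, and the kallisto version and annotation are not given in the sources used here. Groups came from the labels. A4KO was set against WT on log2(TPM + 1), without a filter, by limma 3.58.1 (R 4.3.3; lmFit, eBayes), with two-sided p adjusted by Benjamini-Hochberg over the whole table, and the difference between lines was fitted over 4 groups. Exact permutation tests used scipy 1.17.1. The fits were tested on simulated data with large changes, and smaller changes were not covered. Neighbors came from GENCODE 44 and counted as expressed at a mean log2(TPM + 1) of at least 1. Named genes were the 9 members, ANGPTL4, CCN2, the 2 most changed past the threshold of each list and line, and the 5 most like TGFB2. Members and lists were chosen with earlier results of these data known, and 1 gene first chosen for the induced list is not reported here or counted in that list. Alternatives were a pseudocount of 0.1, a filter at a mean of 1 TPM, the trend and robust options, quantile normalization, a replicate block, each library left out, CAKi-1 A4KO replicates 2, 3 and 5 only, and the median change of 25 neighbors on each side taken off, which for differences between lines was added after seeing the data.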

Additional observations from a re-analysis of the deposited data

Results flagged for a closer look

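In 6 of 66 sets of libraries tested (a named gene in 1 CAKi-1 group), the highest or lowest library stood apart from the rest of its group, by a gap that takes most of the whole range of the group. Chance alone does this in about 1 in 20 groups. The gap as a share of the range was 0.878 for TGFB2 in WT replicate 1 (highest), 0.879 for TGFBI in A4KO replicate 1 (lowest), 0.885 for INHBA in WT replicate 4 (highest), 0.875 for ID3 in WT replicate 4 (highest), 0.845 for CYP1B1 in WT replicate 4 (highest) and 0.843 for IGFBP3 in WT replicate 2 (lowest).

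Tested directly, the A4KO effect differed between the lines for 27 of the 33 named genes in both tables, against 55.1% of all genes in both. Most named genes were picked for a large change in a line or for levels like those of TGFB2, so this count follows largely from the choice. Differences are CAKi-1 minus 786O in log2 fold change. Of the 9 TGF-β genes, it was 3.46 for TGFB2, 1.76 for TGFB3, 0.91 for TGFBR1, 0.89 for SKIL, 0.77 for TGFBR2 and 0.63 for TGFB1. Among the response genes it was 6.73 for FN1, 5.42 for IL11, 1.77 for CCN2, 0.79 for ID1 and -1.10 for ID2. The genes of latency and activation gave 4.88 for LTBP4, 3.58 for LTBP2, 0.53 for LRRC32 and 0.45 for THBS1, and the activin-type ligands 3.07 for INHBA and -0.94 for GDF11. The receptors ACVR2B, ACVR2A and ENG gave 0.86, 0.86 and 0.54, SMAD3 -1.29 and ANGPTL4 itself -1.27. Genes with levels like those of TGFB2 gave 4.17 for CYP1B1, 2.95 for IGFBP3, 2.90 for SEMA3F, 2.22 for ADAMTS9 and 2.005 for DEPP1.

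Some differences changed call under an alternative. The ID1 difference did not pass without CAKi-1 WT replicate 1 (0.72, adjusted p = 0.056), 786O WT replicate 1 (0.79, adjusted p = 0.052) or 2 (0.77, adjusted p = 0.057), or 786O A4KO replicate 2 (0.77, adjusted p = 0.055) or 3 (0.79, adjusted p = 0.051), and its adjusted p ran from 0.0093 to 0.057 over all alternatives. It was 0.47 (adjusted p = 0.015) with CAKi-1 A4KO replicates 2, 3 and 5 only. That of LRRC32 did not pass without CAKi-1 WT replicate 3 (0.49, adjusted p = 0.056), 786O WT replicate 1 (0.48, adjusted p = 0.073) or 786O A4KO replicate 1 (0.47, adjusted p = 0.074) or 2 (0.50, adjusted p = 0.066), nor with a pseudocount of 0.1, where it turned (-0.10, adjusted p = 0.83), after quantile normalization (0.38, adjusted p = 0.081) or with CAKi-1 A4KO replicates 2, 3 and 5 only (0.46, adjusted p = 0.073). Its adjusted p ran from 0.0033 to 0.83. Outside the 9 TGF-β genes, differences that passed only under an alternative were those of SMAD6 (-0.55, adjusted p = 4.8e-05) and ID3 (-0.47, adjusted p = 0.019) with CAKi-1 A4KO replicates 2, 3 and 5 only. That of TGIF2 did so with these replicates (-0.51, adjusted p = 0.011), after quantile normalization (-0.60, adjusted p = 0.0064) and without CAKi-1 A4KO replicate 1 (-0.45, adjusted p = 0.026). The ENG difference was 0.97 with the neighbors taken off and grew about as much with a pseudocount of 0.1, and that of ACVR2B was 1.38 with a pseudocount of 0.1.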

How the results depend on the processing

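Counts over whole tables and over the 9 genes, both directions together, moved by at most 1.5 times under every alternative tried, with 3 exceptions whose cause was not tested. Counts within the pathway lists moved by more in 21 cases. With a pseudocount of 0.1, genes past both thresholds numbered 1077 in CAKi-1 and 2095 in 786O, against 543 and 1233. With the median of the neighbors taken off, 0 of the 9 genes in 786O met both, against 1, where 1058 of all genes did, against 1233. In CAKi-1, 6 of the 9 genes passed with A4KO replicates 2, 3 and 5 only and with the neighbors taken off, against 4, and those lower were 3 and 2, against 1. Among the 9 genes, 237 of the log2 fold changes recomputed kept direction and side of the threshold, 8 newly passed, 3 were lost and 3 changed sign, and of the differences between lines 192 kept both, 4 newly passed and 2 changed sign. The sign changes, whose cause was not tested, were TGFB1 in 786O with the neighbors taken off (0.034), TGFBR3 in CAKi-1 with A4KO replicates 2, 3 and 5 only (0.050), SMAD7 in CAKi-1 and the TGFBI difference. With each library left out in turn, SMAD7 ran from -0.21 to 0.024 and the TGFBI difference from -0.081 to 0.013. With the neighbors taken off, SMAD3 (-0.012), SEMA3F (0.021), DEPP1 (-0.11) and ADAMTS9 (0.10) also changed sign in 786O, as did the differences of TGFBI (0.20) and SMAD6 (0.013), and with a pseudocount of 0.1 so did the LRRC32 difference (-0.10). In 786O the values with a pseudocount of 0.1 were -0.49 for TGFBR3, 1.11 for LRRC32 and -0.44 for ACVR2B, and ACVR2B was at 0.94 in CAKi-1. With the neighbors taken off, LRRC32 was at 0.46 and IGFBP3 at 0.62 in 786O, and ADAMTS9 there was lost after quantile normalization (-0.070, adjusted p = 0.2). TGFBR3 had no CAKi-1 value under the filter on low values, which 8 of the 9 genes passed there.

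Same-numbered replicates share only a number, since the correlation of same-numbered deviations from the group means was -0.06, 0.12, -0.04 and 0.13 in CAKi-1 and -0.05, 0.02 and 0.01 in 786O, and of the CAKi-1 numbers only 4 correlated best with its own. With the replicate number as a block, 4 of the 9 genes passed in CAKi-1 and 7 in 786O, and 6 differed between lines, as without it. Over all genes 5609 passed in CAKi-1 and 9312 in 786O, against 6348 and 9874. The block ended the calls of LRRC32 in 786O (0.28 with and without it, adjusted p = 0.075), of LTBP2 in CAKi-1 (0.31 against 0.27, adjusted p = 0.061) and of the THBS1 difference (0.42, adjusted p = 0.061; 0.0026 to 0.061 over all alternatives), and the TGIF2 difference newly passed (-0.35, adjusted p = 0.049). In CAKi-1, lower genes among the activin-type ligands and antagonists numbered 1 with the block, against 2, as did higher genes among the other receptors. TPM keeps no depth, so the counting error of low genes such as TGFBR3 and TGFB3 could not be taken from the tables.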
